A study of Mus musculus with 1078 samples.

Results

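The vascular endothelial growth factor (VEGF) genes described here were 4 ligands (Vegfa, Vegfb, Vegfc and Pgf), 3 receptors (Flt1, Kdr and Flt4, which encode VEGFR1, VEGFR2 and VEGFR3) and 2 co-receptors (Nrp1 and Nrp2). They were chosen by name as the members of the pathway, and all 9 were among the 21765 genes measured. GL261, a mouse glioma line, was grown in the brain of syngeneic C57Bl/6 mice, of either sex and 6 to 8 wk old when the experiments began, and 1078 single cells were profiled by Smart-seq2, a plate method that reads whole transcripts. All mice bore GL261 tumors. They received control treatment, losartan (60 mg/kg/day), anti-PD1 (200 μg per mouse, 3 doses every 3 d) or losartan+anti-PD1, with up to 2 wk of losartan. Per the study's methods, daily saline was the control for losartan and IgG the control for anti-PD1. Losartan blocks the angiotensin II type 1 receptor, and anti-PD1 is an antibody against a checkpoint receptor of T cells. Live cells of 4 sorts (CD31-positive, CD3-positive, CD45-positive and CD45-negative) filled 16 plates, 1 per sort and treatment, and no animal is named. Each treatment was therefore counted as 1 sample, no test was run, plate and treatment cannot be told apart, and an SD or interval over cells measures the spread between cells of a plate.

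VEGF signaling drives the growth of blood vessels and raises their permeability. VEGF-A, which is induced by hypoxia, binds VEGFR2 on endothelial cells to send most of the signal, and VEGFR1 binds the same ligand more tightly and signals weakly, its secreted form acting as a decoy. VEGF-B and placental growth factor (Pgf) bind VEGFR1, VEGF-C and VEGF-D bind VEGFR3, the receptor best known from lymphatic vessels and sprouting tips, and the neuropilins hold VEGF near its receptors and also bind semaphorins. Gene-level values do not separate the membrane and secreted forms of Flt1.

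Flt1 and Kdr lie on the reverse strand of chromosome 5 (chr5:147561604-147726011 and chr5:75932827-75978458, GENCODE vM21 on GRCm38). Their promoters are shown because these receptors separate tumor endothelial cells (TECs) from the other cells and, as described next, had unlike patterns among TECs. Each sequence is the 240 bases before the start site (RefSeq, GRCm38.p6), at chr5:147726022-147726261 for Flt1 and chr5:75978466-75978705 for Kdr, read 5′ to 3′ on the gene's own strand, and capitals mark GGAA on either strand (TTCC on the other), the core bound by ETS factors, a family with members active in endothelium.
Flt1: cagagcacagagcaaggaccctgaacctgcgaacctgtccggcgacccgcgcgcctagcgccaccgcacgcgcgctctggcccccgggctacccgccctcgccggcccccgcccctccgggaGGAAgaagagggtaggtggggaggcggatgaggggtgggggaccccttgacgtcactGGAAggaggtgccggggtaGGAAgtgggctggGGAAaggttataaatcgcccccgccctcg
Kdr: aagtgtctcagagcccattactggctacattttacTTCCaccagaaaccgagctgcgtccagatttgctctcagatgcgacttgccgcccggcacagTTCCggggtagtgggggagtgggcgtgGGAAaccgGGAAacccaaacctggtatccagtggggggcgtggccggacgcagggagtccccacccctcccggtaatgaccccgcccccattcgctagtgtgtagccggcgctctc
Each window held 4 such cores and no ACGTG or CACGT, a form of the core of the hypoxia response element. Another form, GCGTG or CACGC on the other strand, is present in both windows. It was not counted there or in the comparison that follows, so absence of the core cannot be read from these counts. For comparison, 92.7% of 32851 promoters of this length held at least 1 ETS core (median 3), 30.5% held at least 4, and 15.9% held ACGTG on either strand, so the counts for both receptors are common ones. A match is a description of letters and not a bound site.

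Receptor expression was first read across cell types. Values were scaled to 100000 per cell (TP100K). They are per transcript length (TPM) in the CD31-positive and CD3-positive sorts and expected read counts in the other sorts, so levels were compared only within a sort. In the CD31-positive sort, Flt1 was above 0 in 98.5% of TECs (exact 95% binomial interval 95.6 to 99.7%), Kdr in 80% (73.7 to 85.4%), Nrp1 in 75.4% (68.7 to 81.3%), Flt4 in 68.7% (61.7 to 75.2%) and Nrp2 in 37.9% (31.1 to 45.2%). The plates held 43 TECs in control, 57 in losartan, 79 in anti-PD1 and 16 in losartan+anti-PD1. The mean levels followed the order Flt1 (33.4 TP100K), Kdr (17.3), Nrp1 (16.5), Flt4 (6.33) and Nrp2 (2.56), but the SD of Flt1 alone was 33.9, so neighbors in this order overlapped widely between cells. Every TEC had at least 1 of Flt1, Kdr and Flt4, and 61.5% (54.3 to 68.4%) had all 3. The TEC label held against its markers: all 8 endothelial genes were present, with summed levels of 279.3 to 5531 TP100K per cell (median 1682).

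**Figure D1:**
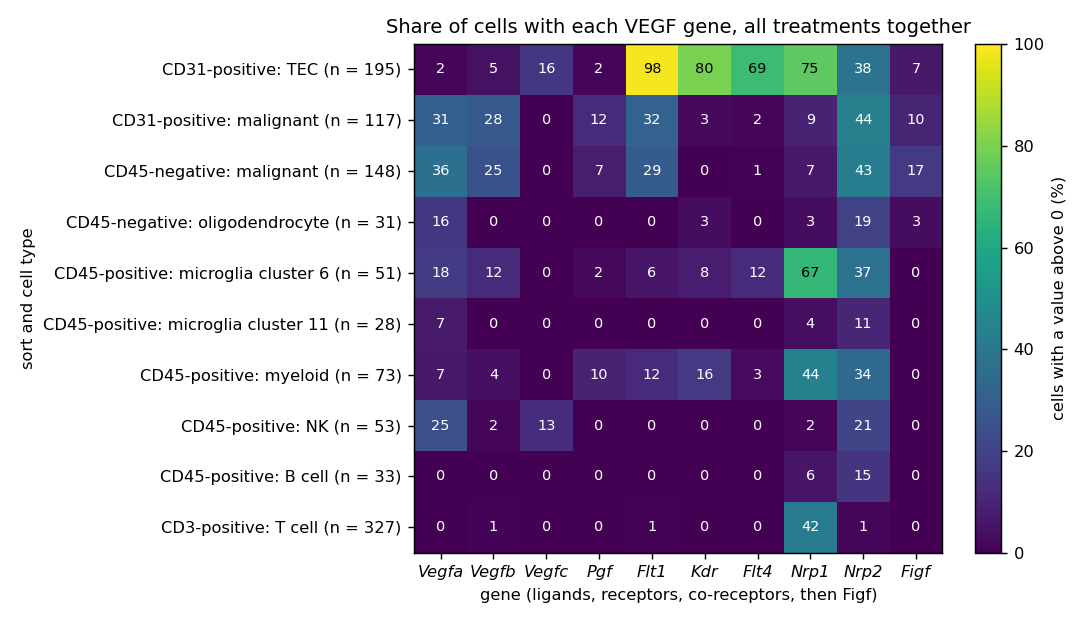
Share of cells with a value above 0 for each VEGF gene (columns), by sort and cell type (rows), all treatments together, with the color giving the percent of cells. Flt1, Kdr and Flt4 stand out in the endothelial rows (98.5%, 80% and 68.7% of the CD31-positive TECs), Nrp1 also in T cells, microglia and myeloid cells, and Vegfa in malignant and NK cells.

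TECs and malignant cells of the same CD31-positive plate gave the plainest contrast. Mean Flt1 was 24.8 TP100K in control TECs against 0.504 in the 33 control malignant cells, a log2 ratio of 4.10 (log2 of the means after adding 1 TP100K), and 4.82, 4.78 and 4.91 on the losartan, anti-PD1 and losartan+anti-PD1 plates. For Kdr, the receptor that carries most VEGF-A signaling, the ratios were 4.66, 3.88, 2.60 and 4.50, and for Nrp1 4.65, 3.63, 1.90 and 4.57. Flt4 gave 3.71, 2.60, 1.88 and 2.41. These 4 genes were thus at least 2-fold higher in TECs on each plate, and the anti-PD1 ratios rest on only 8 malignant cells, 1 of which carried most of the Nrp1 (17.6 TP100K) and all of the Flt4 (4.06 TP100K) together with the pericyte markers Rgs5, Pdgfrb and Vtn. All 5 astrocyte markers (Gfap, Aqp4, Aldoc, Slc1a3 and Gja1) were found among these 8 cells, with a summed level of 0 to 2266 TP100K (median 308, mean 674), against means of 23.8, 14.1 and 15.3 TP100K on the control, losartan and losartan+anti-PD1 plates. The label of these 8 cells is therefore in doubt, and the part of the astrocyte markers in the anti-PD1 ratios was not tested. Nrp2 was less separated, at 1.32, 0.28, 1.84 and 0.50, and with 75th percentile scaling the losartan and losartan+anti-PD1 values were −0.05 and −0.26.

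The members counted as at least 2-fold higher in TECs were 5 of the 7 that passed the filter on the control plate (above 0 in at least 25% of either cell type), 4 of 7 with losartan, 5 of 6 with anti-PD1 and 4 of 7 with losartan+anti-PD1. Over all genes tested 15.8%, 17.3%, 14.8% and 18.8% were higher in TECs, and 20.2%, 14.9%, 21.8% and 23.7% lower. Only Vegfb, on the control plate, was a member at least 2-fold lower in TECs, at 0 in 43 TECs against a mean of 1.05 TP100K in malignant cells.

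TECs were then compared between treatments. Flt4, the VEGF-C receptor, was lower on all 3 treated plates. Its values ran from 0 to 96.2 TP100K in control TECs (median 7.39), 0 to 48.5 on the losartan plate (median 1.49), 0 to 36.02 on the anti-PD1 plate (median 2.01) and 0 to 21.1 on the losartan+anti-PD1 plate (median 1.40). The ranges overlapped from 0 upward and the control plate held the highest cell. Means were 12.1 ± 17.3 (SD over cells), 5.05 ± 9.08, 4.55 ± 7.12 and 4.36 ± 6.66 TP100K, and the log2 ratios to control were −1.11, −1.23 and −1.28. All 3 ratios share the control plate. Among TECs with 2000 to 6000 genes they were −0.59, −0.73 and −0.92, short of 2-fold.

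Flt1 and Kdr did not reach a 2-fold difference from control. Flt1 values ran from 0 to 175.6 TP100K in control TECs (median 15.7), from 1.57 to 225.1 on the losartan plate (median 22.7), from 0.283 to 107.1 on the anti-PD1 plate (median 26.2) and from 0 to 134.4 on the losartan+anti-PD1 plate (median 19.01). Kdr values ran from 0 to 107.7 TP100K in control TECs (median 17.2), 0 to 81.97 on the losartan plate (median 8.70), 0 to 78.8 on the anti-PD1 plate (median 11.6) and 0 to 91.8 on the losartan+anti-PD1 plate (median 14.8). All 4 ranges overlapped for each gene. The Flt1 ratios to control were 0.69, 0.38 and 0.50, which became 0.05, −0.02 and 0.07 when cells were scaled by their 75th percentile, so the sign held for losartan and losartan+anti-PD1 at values close to 0 and turned for anti-PD1. The Kdr ratios of −0.76, −0.67 and −0.17 kept their sign, at −0.69, −0.78 and −0.42.

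Because a ratio of 2 genes within a cell does not depend on how the cell is scaled, the TECs with more Kdr than Flt1 were counted. They made up 22 of 43 control TECs (51.2%, interval 35.5 to 66.7%), 16 of 57 on the losartan plate (28.1%, 16.97 to 41.5%), 21 of 79 on the anti-PD1 plate (26.6%, 17.3 to 37.7%) and 7 of 16 with both agents (43.8%, 19.8 to 70.1%). The share was highest in control cells, and the interval for losartan+anti-PD1 covered the shares of the other 3 plates. The intervals cover counting error over cells only. The count still depends on detection, since a gene at 0 counts as the lower one. Both genes were above 0 in 39 of 43 control, 44 of 57 losartan, 59 of 79 anti-PD1 and 11 of 16 losartan+anti-PD1 TECs. Medians of genes per TEC were 3620, 3126, 2999 and 3366, and the part of depth was not tested. In the control group the mean levels of the 2 genes were close, with a Flt1-to-Kdr ratio of means of 1.02, against 2.90, 2.17 and 1.64 in the treated groups.

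The co-receptors followed other patterns. Nrp1, which binds VEGF-A and semaphorins, had a median of 12.3 TP100K in control TECs (0 to 188.1), 2.75 on the losartan plate (0 to 121.9), 7.73 on the anti-PD1 plate (0 to 59.3) and 20.2 on the losartan+anti-PD1 plate (0 to 117.6). The 16 TECs with losartan+anti-PD1 had the highest median, with Nrp1 in 15 of 16 cells. Their log2 ratio to control was 0.34, which became −0.02 with 75th percentile scaling, and their ratio to anti-PD1 was 1.23, which became 0.91 with 75th percentile scaling and 0.61 among cells with 2000 to 6000 genes. Nrp2, which pairs with VEGFR3, was at a median of 0 in control TECs (0 to 34.4), 0 on the losartan plate (0 to 9.34), 0 on the anti-PD1 plate (0 to 44.2) and 0.572 on the losartan+anti-PD1 plate (0 to 8.50). Its mean was 3.62 TP100K in control TECs and 0.703 with losartan (log2 ratio −1.44), while the shares of cells above 0 were 46.5% and 33.3%.

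Counted against all genes, 5 of the 9 members passed the filter in TECs (the receptors and co-receptors), and none of the ligands did. With losartan 0 of 5 were at least 2-fold higher and 2 lower, against 9.37% and 6.35% of all genes. With anti-PD1 0 were higher and 1 lower (10.5% and 7.4% of all genes), and with losartan+anti-PD1 0 and 1 (12.4% and 13.4%). In losartan+anti-PD1 against anti-PD1, 1 was higher and 0 lower (11.2% and 14.8%). With 5 genes, these shares cannot be set apart from the background. The 75th percentile scaling moved the median of all genes from 0.05 to −0.16 with losartan and from 0.07 to −0.31 with anti-PD1. Rn45s, the ribosomal RNA precursor, averaged 12.6% of the values of control TECs against 8.47%, 7.33% and 10.01% in the treated groups, and its part in these ratios was not tested beyond leaving it out of the scaling, which kept the Flt4 ratios at −1.24, −1.40 and −1.42.

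**Figure D2:**
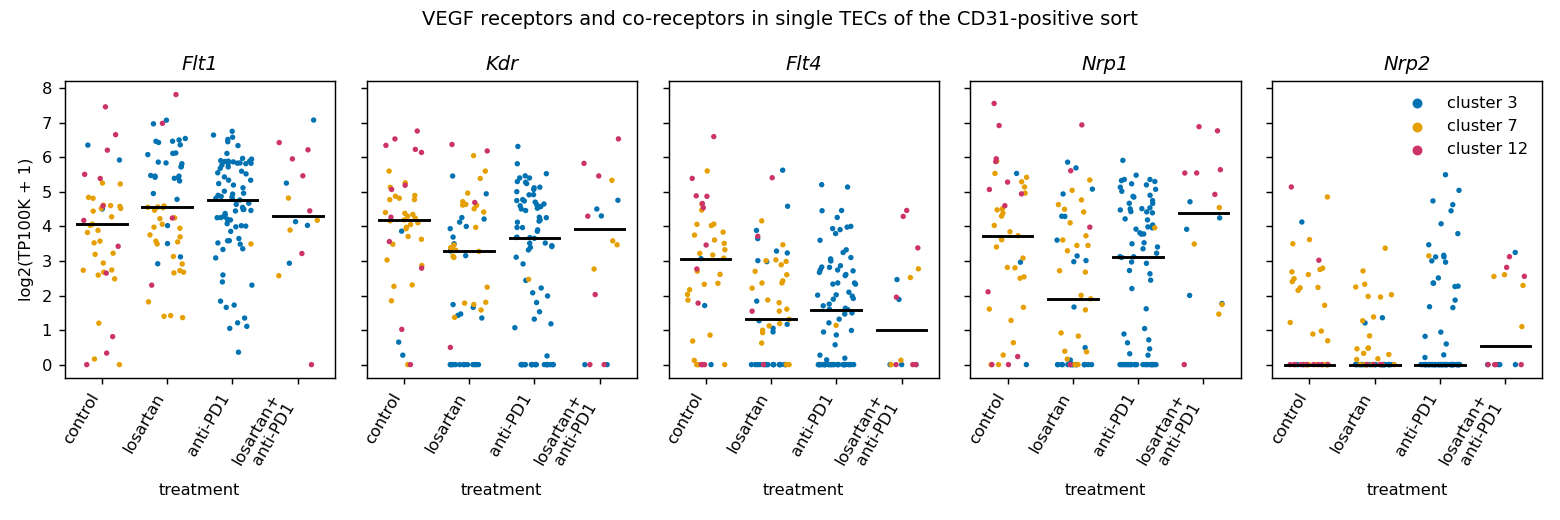
Flt1, Kdr, Flt4, Nrp1 and Nrp2 in single TECs of the CD31-positive sort, as log2(TP100K + 1) on the vertical axis, by treatment. Points are cells colored by the authors' cluster and bars are medians over cells, and the ranges of all treatments overlap for each gene.

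The mix of TECs differed between plates. The authors' clusters split the TECs into cluster 3, led by Gkn3, Degs2, Prom1, Mgp, Pcp4l1 and Slco1c1, cluster 7 (57 cells), led by Il10, Ms4a6d, Ctsw, Rnf183, Ifi204 and Apln, and cluster 12 (23 cells), led by Plvap (209.03 TP100K against 1.56 in the other TECs), Thrsp, Mfap2, Cd24a and Cd300lg. Plvap encodes the diaphragm protein of fenestrated capillaries, and the tight junction gene Cldn5 was in only 3 of the 23 cluster 12 cells (mean 8.12 TP100K against 1577 and 927 in clusters 3 and 7). Cluster 3 held 3 of 43 control, 29 of 57 losartan, 78 of 79 anti-PD1 and 5 of 16 losartan+anti-PD1 TECs. Cluster 7 held 28, 24, 1 and 4, and cluster 12 held 12, 4, 0 and 7. Anti-PD1 and cluster 3 can therefore hardly be told apart. The clusters were made from the expression of these same cells, so differences between them are given as descriptions.

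Flt1 was at 39.9 ± 30.5 TP100K in cluster 3, 13.6 ± 9.01 in cluster 7 and 50.2 ± 59.7 in cluster 12. Kdr was at 12.7 ± 14.8, 17.4 ± 13.5 and 39.99 ± 36.4 TP100K. On this scale cluster 3 was high in Flt1 and low in Kdr, cluster 7 was low in Flt1, and the Plvap-high cluster 12 was high in both. With 75th percentile scaling the log2 ratio for Flt1 was −0.33 in place of −1.49 for cluster 7 against 3 and −0.11 in place of 0.33 for cluster 12 against 3. Nrp1 (11.7, 13.1 and 49.4 TP100K) and Flt4 (4.43, 6.29 and 15.9) were also highest in cluster 12. With 75th percentile scaling the log2 ratio of cluster 12 to cluster 7 was −0.44 for Kdr and −0.30 for Flt4, in place of 1.16 and 1.22, so the order of clusters 7 and 12 for these genes depends on the scaling. The cells with more Kdr than Flt1 were 25 in cluster 3 (21.7%, 14.6 to 30.4%), 29 of 57 in cluster 7 (50.9%, 37.3 to 64.4%) and 12 of 23 in cluster 12 (52.2%, 30.6 to 73.2%).

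At least 2-fold, 3 of 5 members differed between clusters 12 and 3, 4 of 5 between 12 and 7, and 1 of 5 (Flt1, −1.49) between 7 and 3, where 41.7%, 42.5% and 15.3% of all genes did. With 75th percentile scaling these counts were 1, 1 and 2, so most of these calls depend on the scaling. Clusters 3, 7 and 12 had medians of 2714, 4252 and 1660 genes per cell, and the part of that difference in these ratios was not tested.

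**Figure D3:**
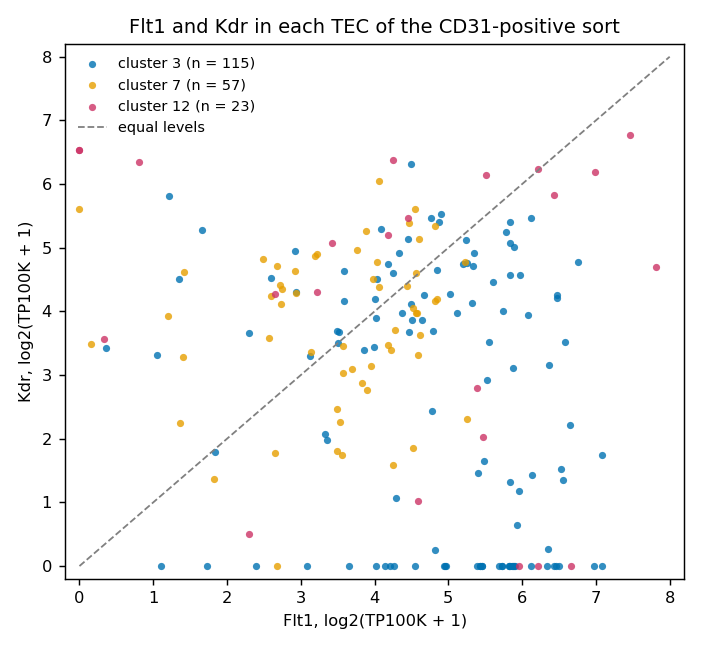
Flt1 (horizontal axis) against Kdr (vertical axis), both as log2(TP100K + 1), in each TEC of the CD31-positive sort, colored by cluster, with a dashed line at equal levels. Of cluster 3, 25 cells (21.7%) lie above the line, and of clusters 7 and 12, 29 of 57 and 12 of 23.

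Within a cluster the treatments could be set side by side in 2 places. In cluster 3, Kdr was at 6.99 ± 10.5 TP100K with losartan (29 cells, median 1.69, 0 to 43.05) and 15.1 ± 15.9 with anti-PD1 (78 cells, median 11.7, 0 to 78.8), a log2 ratio of 1.01 for anti-PD1 over losartan, and Nrp2 was in 2 of 29 and 26 of 78 cells (means 0.099 and 3.24 TP100K, log2 ratio 1.95). Flt1 went the other way, at 56.9 and 32.9 TP100K (log2 ratio −0.77). More Kdr than Flt1 was found in 2 of 29 losartan cells (6.90%, 0.846 to 22.8%) and 21 of 78 anti-PD1 cells (26.9%, 17.5 to 38.2%) of this cluster. There 2 of 6 members were at least 2-fold higher with anti-PD1 and none lower, beside 9.26% and 6.94% of all genes. With 10 TP100K added no member was past 2-fold. With 75th percentile scaling the median log2 ratio of all genes moved from 0.02 to 0.34. The share of higher among genes past 2-fold moved from 57.2% to 92.3%, so the direction of such calls depends on the scaling.

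In clusters 7 and 12 together, losartan was compared with control (28 and 40 cells). Flt4 was the only one of 5 members past 2-fold (−1.09), beside 7.29% of all genes higher and 6.7% lower. The Flt4 ratio stayed negative but short of 2-fold with 75th percentile scaling (−0.80), among cells with 2000 to 6000 genes (−0.92) and with 10 TP100K added (−0.56). Within cluster 7 alone its mean was 8.91 TP100K in 28 control cells and 4.04 in 24 losartan cells, while Kdr was at 18.04 and 17.2 and more Kdr than Flt1 was found in 14 of 28 and 13 of 24 cells. The lower mean Kdr of all losartan TECs was thus not seen within cluster 7.

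Genes that VEGF is known to induce in endothelium were read beside the receptors. The list was chosen with earlier results of these data known, so its counts are descriptions. With losartan 5 of the 10 of 15 listed genes that passed the filter were at least 2-fold lower and none higher (median log2 ratio −1.02, against 0.05 over all genes). With anti-PD1 5 of 11 were lower and 1 higher (median −0.88 against 0.07), and with losartan+anti-PD1 6 of 10 were lower and none higher (median −1.21 against −0.05). Of all genes 6.35%, 7.4% and 13.4% were lower and 9.37%, 10.5% and 12.4% higher in these comparisons. Esm1, a secreted proteoglycan of tip cells, averaged 26.1 TP100K in control TECs, 4.27 with losartan and 9.54 with losartan+anti-PD1, and was at 0 in all 79 TECs with anti-PD1 (which allows a share of up to 3.80%). Apln, the ligand of the apelin receptor, averaged 35.7 TP100K in control TECs and 7.89, 4.55 and 15.9 in the treated groups. Angpt2, which destabilizes vessels, averaged 22.4 TP100K and 9.81, 3.72 and 4.36. Not every listed gene was lower. Unc5b averaged 0.454 TP100K in control TECs and 2.05, 2.52 and 1.81 in the treated groups. Aplnr averaged 16.01 TP100K and 22.1, 6.91 and 5.55, and Dll4 15.6 TP100K and 16.4, 14.04 and 13.8.

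These genes also divided the clusters. Esm1 was at 0 in cluster 3 and at 56.2 TP100K in cluster 12, and Apln at 3.30 in cluster 3, 37.4 in cluster 7 and 3.73 in cluster 12, so the mix of clusters on each plate moves with the list and its part was not tested. In clusters 7 and 12 alone, losartan against control, 5 of 10 were lower and 1 higher (median −0.73 against 0.03). Of all genes 6.7% were lower and 7.29% higher there.

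Other lists of the pathway held few genes past 2-fold or differed in both directions. Of the intracellular VEGF receptor signaling genes 1 of 25 was at least 2-fold higher with losartan, 2 of 26 with anti-PD1 and 2 of 25 with losartan+anti-PD1, where 3 were lower (Mapk3, Gab1 and Map2k1). Of all genes 9.37%, 10.5% and 12.4% were higher and 6.35%, 7.4% and 13.4% lower in these comparisons, so the signaling list held no larger share than all genes did, in either direction. Among semaphorins, plexins and other neuropilin partners, Sema3c was higher with losartan (6.24 against 0.988 TP100K, log2 ratio 1.87) and with anti-PD1 (10.99 TP100K, 2.59), and Sema3f and Plxna1 with losartan+anti-PD1 (1.13 and 1.54). Beside the same shares of all genes, of 15 hypoxia-responsive genes tested in each 4 were higher and 2 lower with losartan, 2 and 3 with anti-PD1, and 0 and 2 with losartan+anti-PD1. Ndrg1 was higher in the comparisons with losartan and with anti-PD1 (3.01 and 2.38), while Adm was lower in all 3 comparisons (−1.49, −1.24 and −1.46). None of the 4 lymphatic genes (Prox1, Lyve1, Pdpn and Ccl21a) passed the filter in these TEC comparisons.

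The genes whose levels across TECs were most like a receptor's were found by Spearman's rho over 5134 genes, as a description without a test, since cells of a plate share a library batch and genes detected. For Flt1 they were Epas1 (0.50), which encodes HIF-2α, Slco1c1, Sgms1, Apoe and Prom1. For Kdr they were the basement membrane genes Nid1 (0.38) and Col4a2 (0.34), then Sh3tc1, Tgtp1 and Arhgef15. Flt4 was most like Igfbp3 (0.34), Col4a1, Itga5, Meox1 and Sparc, and Nrp1 like Sema3f (0.32), Prpf39, Hspg2, Igfbp3 and Kdr (0.30). Flt1 and Kdr themselves gave −0.19. Flt1 gave −0.35 with the number of genes detected and Kdr 0.17, so depth moves with these likenesses and its part was not tested.

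Vegfa was found mainly outside the endothelium. It was above 0 in 36 malignant cells of the CD31-positive sort (30.8%, 22.6 to 39.97%) and in 54 of the CD45-negative sort (36.5%, 28.7 to 44.8%), against 3 TECs of the CD31-positive sort (1.54%, 0.318 to 4.43%) and 0 of 327 T cells, which allows a share of up to 0.917%. Cells of these types differed in depth, with medians of 7042 genes in the malignant cells and 3126 in the TECs of the CD31-positive sort. The level was low, at a mean of 0.179 TP100K in the malignant cells of the CD31-positive sort. Oligodendrocytes held Vegfa too, in 4 of 29 cells of the anti-PD1 CD45-negative plate, at no more than 9 expected counts. They held 84.2% of the summed Vegfa level of that plate and its malignant cells 15.8%. On the losartan+anti-PD1 CD45-negative plate 1 oligodendrocyte held 13.1%. By treatment, the CD31-positive plates gave 11 of 33 control, 10 of 25 losartan, 2 of 8 anti-PD1 and 13 of 51 losartan+anti-PD1 malignant cells above 0. The CD45-negative plates gave 20 of 49, 20 of 47, 1 of 8 and 13 of 44. Mean levels there were 0.489 ± 0.781 TP100K in control, 1.52 ± 4.29 with losartan, 0.0488 with anti-PD1 and 0.517 ± 0.903 with losartan+anti-PD1, and the highest cell (27.8 TP100K, 45.13 expected counts) was on the losartan plate. This plate is losartan in the sample labels used here and losartan+anti-PD1 in 1 column of the deposited cell table. The 8 anti-PD1 malignant cells of the CD45-negative sort had a median of 3799.5 genes. The medians were 7095 in control, 7099 with losartan and 7129 with losartan+anti-PD1. Of these 8 cells, 2 held at least 3 pericyte markers. The part of depth and label in their low Vegfa mean was not tested.

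No member that passed the filter in malignant cells differed at least 2-fold from control, in 4, 4, 4 and 3 members for losartan and losartan+anti-PD1 in the CD31-positive and CD45-negative sorts, beside 1.78%, 1.41%, 1.49% and 2.38% of all genes. For Vegfa the log2 ratios were 0.08 and 0.15 in the CD31-positive sort and 0.76 and 0.03 in the CD45-negative sort, where only the losartan plate stood higher. In the hypoxia list 2 genes did pass 2-fold with losartan in both sorts, Slc2a1, the glucose transporter (1.94 and 2.33), and Bnip3, a mitochondrial protein of hypoxic cells (1.64 and 2.01). Both were also higher with losartan+anti-PD1 in the CD45-negative sort (2.66 and 1.88) but no gene of the list was in the CD31-positive sort (0 of 17). Malignant cells with Vegfa had a hypoxia score, the mean ln(TP100K + 1) of 20 genes, of 1.89 ± 0.510 against 1.54 ± 0.388 without it in the CD45-negative sort, and of 2.01 ± 0.442 against 1.90 ± 0.421 in the CD31-positive sort. These scores pool the plates. On the control, losartan and losartan+anti-PD1 plates the difference was 0.18, 0.35 and 0.51 in the CD45-negative sort and 0.03, 0.03 and 0.09 in the CD31-positive sort. With anti-PD1 it was −0.07 and 0.52, with Vegfa in only 1 and 2 cells. The cells with Vegfa also had more genes detected (medians of 7194 against 6614 in the CD45-negative sort).

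The genes most like Vegfa across the malignant cells of the CD31-positive sort, over 9436 genes, were Sesn2 (0.47), a stress-induced regulator of metabolism, Sltm, Vldlr (0.37), Chmp2b and Kdm2a. In the malignant cells of the CD45-negative sort Sesn2 and Vldlr gave 0.38 and 0.43, and the other 3 genes 0.13 to 0.14.

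The other ligands were spread differently. On the CD31-positive plates TECs held all of the summed Vegfc level, 0 to 87.8% of that of Vegfb and 0 to 98.7% of that of Pgf. Vegfb was above 0 in 33 malignant cells of the CD31-positive sort and 37 of the CD45-negative sort (28.2% and 25%) and in 9 TECs, 7 of them with losartan. Vegfc was in no malignant cell of either sort, which allows up to 2.56% and 2.03%, but in 31 TECs (15.9%, 11.1 to 21.8%), 28 of them in cluster 3, with values of up to 189.7 TP100K. By treatment these were 3 of 43 control, 10 of 57 losartan, 17 of 79 anti-PD1 and 1 of 16 losartan+anti-PD1 TECs, and within cluster 3 they were 9 of 29 with losartan and 17 of 78 with anti-PD1. Figf, which encodes VEGF-D, a ligand outside the 9 members, was in 10 of 79 TECs with anti-PD1, 2 of 16 with losartan+anti-PD1, 1 of 43 control and 0 of 57 losartan TECs. It was also found in malignant cells, in 6 of 33 control, 3 of 25 losartan, 0 of 8 anti-PD1 and 3 of 51 losartan+anti-PD1 cells of the CD31-positive sort and in 13 of 49, 4 of 47, 0 of 8 and 8 of 44 of the CD45-negative sort. On the control CD31-positive plate 85.5% of the summed Figf level was in malignant cells, and on the anti-PD1 plate 100% was in TECs. The control sum was low, since its 1 TEC with Figf, at 0.73 TP100K, held 14.5% of it. Anti-PD1 TECs reached 15.6 TP100K. In the CD45-negative sort the control malignant cells with Figf had a median of 1 expected count and at most 4.

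Pgf was in few cells of any type. It was above 0 in 14 malignant cells of the CD31-positive sort and 11 of the CD45-negative sort, and in 3 TECs, of up to 580.1 TP100K. The malignant label is an annotation of clusters, which the authors checked by inferred copy number, and 5 cells with that label held at least 3 of 6 pericyte markers, 4 of them with Pgf (18.3 to 118.8 TP100K). In the CD45-negative sort mean Pgf in malignant cells was 0.959 TP100K in control, 1.03 with losartan and 18.01 with anti-PD1, and without the cells with pericyte markers it was 0.0599, 0.654 and 0. Those few cells thus carried most of the Pgf on the anti-PD1 and control plates. Malignant cells also held receptor genes, Flt1 in 31.6% and 29.1% of them and Nrp2 in 43.6% and 42.6%, while Kdr was in 3 and 0 cells.

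**Figure D4:**
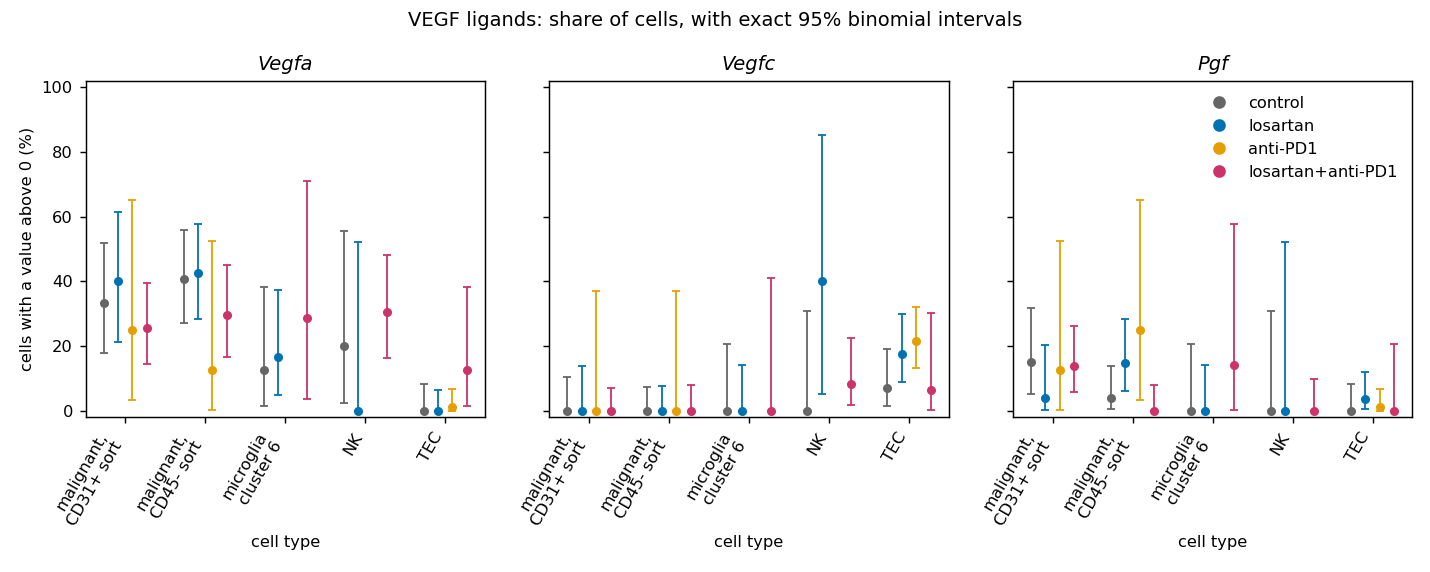
Share of cells with a value above 0 (vertical axis, percent, with exact 95% binomial intervals) for the ligands Vegfa, Vegfc and Pgf, by cell type and treatment. Vegfa lies between 12.5% and 42.6% in malignant cells and at 30.6% in NK cells with losartan+anti-PD1, and Vegfc is found in TECs and NK cells and at 0 in malignant cells.

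In immune cells the main member was Nrp1. In T cells of the CD3-positive sort it was above 0 in 35 of 79 control cells (44.3%), 34 of 76 with losartan (44.7%), 26 of 88 with anti-PD1 (29.5%) and 41 of 84 with losartan+anti-PD1 (48.8%). The values ran from 0 to 50.3, 80.6, 56.6 and 78.7 TP100K with a median of 0 in each group, and means were 5.43 ± 10.2, 6.71 ± 13.1, 4.19 ± 10.5 and 9.61 ± 16.1 TP100K. No ratio to control reached 2-fold (0.26, −0.31 and 0.72), and Nrp1 was the only member that passed the filter there, beside 5.87%, 8.16% and 4.85% of all genes past 2-fold.

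The T cells were split by Cd4, a split chosen after the values were seen. Nrp1 was in 59.9% of T cells with Cd4 above 0 (52.1 to 67.3%) and in 21.3% with Cd4 at 0 (15.1 to 28.6%), with medians of 2264 and 1868 genes per cell. With Cd4 above 0 the plates gave 27 of 44, 29 of 50, 10 of 22 and 37 of 56, and with Cd4 at 0 they gave 8 of 35, 5 of 26, 16 of 66 and 4 of 28. The share was higher with Cd4 on all 4 plates. The anti-PD1 plate had the fewest Cd4 cells (22 of 88). By Foxp3, the marker of regulatory T cells, Nrp1 was in 13 of 33 cells with it (39.4%, 22.9 to 57.9%) and in 41.8% of 294 without (36.1 to 47.7%).

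**Figure D5:**
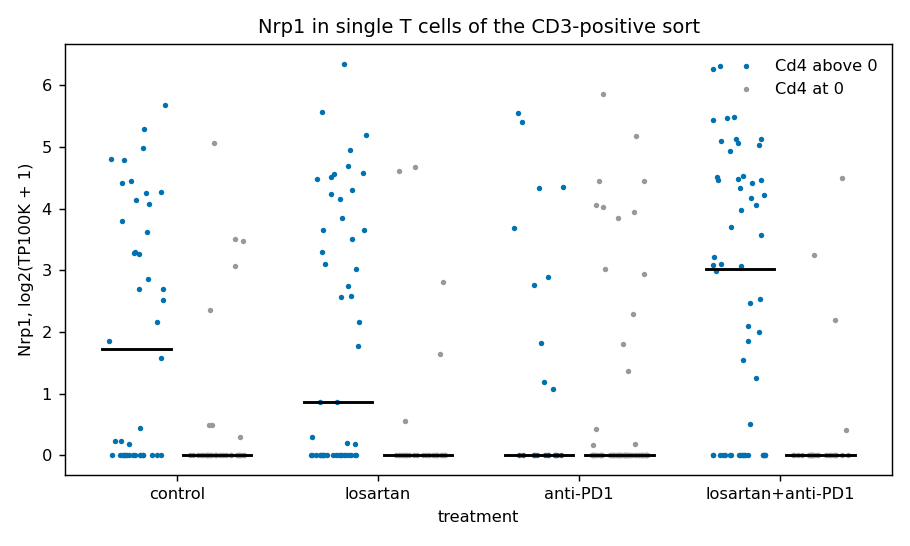
Nrp1 in single T cells of the CD3-positive sort, as log2(TP100K + 1) on the vertical axis, by treatment and by whether Cd4 was above 0. Points are cells, and Nrp1 is above 0 in 59.9% of cells with Cd4 and 21.3% without.

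Microglia of the CD45-positive sort came in 2 of the authors' clusters. Cluster 6 (51 cells) held all 6 microglia markers. Cluster 11 (28 cells) was led by S100a8 and S100a9, its microglia markers were low with Tmem119 and Sall1 at 0, and it held almost none of the 9 members, so cluster 6 alone carried the markers of its label. In cluster 6 Nrp1 was above 0 in 13 of 16 control cells (0 to 40.8 TP100K, median 10.3), 15 of 24 with losartan (0 to 138.2, median 9.61), 4 of 4 with anti-PD1 (highest 189.4) and 2 of 7 with losartan+anti-PD1 (0 to 26.7). Medians of control and losartan were close although the means were 13.1 and 28.1 TP100K.

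Over all microglia the log2 ratio of losartan to control was 1.47 for Nrp1 and −1.85 for Nrp2, and within cluster 6 it was 1.05 and −2.44. The Nrp2 ratio rests largely on 1 control cell at 142.4 TP100K, and without the highest cell of each group it was −0.85. These were the only 2 members that passed the filter, where 28.4% of all genes differed at least 2-fold. Rn45s took 22.997% of control and 11.9% of losartan microglia, and without it the median ratio of all genes moved from 0.24 to 0.11. Vegfa was in 9 of 51 cluster 6 cells.

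Myeloid cells, which held dendritic cell markers, had Nrp1 in 11 of 25 control, 16 of 34 losartan, 2 of 3 anti-PD1 and 3 of 11 losartan+anti-PD1 cells. Kdr was in 6 of 25, 3 of 34, 0 of 3 and 3 of 11, with values of up to 41.1 TP100K. Neither Nrp1 (−0.11) nor Nrp2 (0.91), the 2 members tested, was past 2-fold for losartan against control, beside 13.8% of all genes. Pgf averaged 10.2 TP100K in the 11 losartan+anti-PD1 cells, where 3 were above 0, against 0.698 in control. NK cells held Vegfa in 2 of 10 control, 0 of 5 losartan, 0 of 2 anti-PD1 and 11 of 36 losartan+anti-PD1 cells, and Vegfc in 7 of 53. B cells had none of the 4 ligands and none of the 3 receptors in 33 cells, which allows a share of up to 9.09% for each.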

How the data were processed

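Single cells of GL261 tumors were profiled by Smart-seq2, with 314 cells in the CD31-positive, 338 in the CD3-positive, 240 in the CD45-positive sort and the rest of the 1078 in the CD45-negative sort. The authors used Bowtie against mm10 transcripts, then RSEM (1.2.8 in the submitters' notes, which also list TopHat), and their cell filter asked for 1000 to 8000 genes, 20 or more of them housekeeping genes. The deposited values are TPM in the CD31-positive and CD3-positive sorts, made by the authors by dividing by transcript length, so the depth of these cells is unknown. In the CD45-negative and CD45-positive sorts the deposited values are expected counts, with medians of 494100 and 286371 per cell (3598 to 1896090 over both sorts). The precision of a share is given by exact (Clopper-Pearson) 95% intervals, and 0 of n cells allows up to 3/n. Both cover counting error over cells only.

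Cell types, clusters (Louvain, resolution 0.4) and treatments were taken from the authors' labels. Each cell was scaled to 100000 (TP100K), ratios are log2 of means after adding 1 TP100K, and a gene was tested if 25% or more of the cells in one of the groups had a value above 0, with 2-fold as the limit for counting it. With 1 plate per sort and treatment no test was run. The 9 genes and the lists were chosen with earlier results of these data known. Named beside them were the 5 genes most like each member and up to 3 genes per list and direction past 2-fold. The step that computes ratios was tested on simulated data. Alternatives covered gene length, the highest cell, genes per cell, the cells included, the pseudocount, the scaling, the filter and the detection limit. Leaving out Rn45s, leaving out malignant cells with pericyte markers and keeping cluster 6 alone among microglia were chosen after seeing the data. Figures were drawn with matplotlib 3.10.9, intervals came from SciPy 1.17.1, and tables were handled in pandas 2.3.3 and NumPy 2.4.6 under Python 3.11.15. Bulk and protein data were not analysed here.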

Additional observations from a re-analysis of the deposited data

Results flagged for a closer look

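Signals stood out in cells that the comparisons between treatments did not use. Vegfa was above 0 in 11 of 36 NK cells with losartan+anti-PD1 (30.6%), with values of 0.229 to 19.5 TP100K (1 to 45.57 expected counts), against 2 of 10 control NK cells of at most 0.457 TP100K. Figf, which encodes VEGF-D, was above 0 in 4 of the 5 anti-PD1 TECs of the CD45-negative sort (80%), at 0.192 to 6.11 TP100K, and that sort held no control TEC. In the malignant cells of the same sort Figf was above 0 in 13 of 49 control, 4 of 47 losartan, 0 of 8 anti-PD1 and 8 of 44 losartan+anti-PD1 cells. The highest of these malignant cells held 4, 13 and 25 expected counts in control, losartan and losartan+anti-PD1. Neither difference was tested.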

How the results depend on the processing

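No replicate could be left out, since each treatment is 1 plate, and the depth of the TPM sorts is unknown. No paired analysis was possible because each treatment is 1 plate and no test was run. Of 613 log2 ratios recomputed under the alternatives, 516 kept their sign and side of 2-fold, 28 changed sign while short of 2-fold in both settings, 28 passed it, 37 dropped below it and 4 changed sign at 2-fold or more in 1 of the settings, and 110 counts of members past 2-fold kept within 1.5 times while 34 did not. The cause of the changes was not tested. At 10 TP100K added, the counts of members past 2-fold in TECs went from 2 to 0 with losartan, from 1 to 0 in the other 3 treatment comparisons, from 2 to 0 in cluster 3 and from 1 to 0 in clusters 7 and 12, in microglia from 2 to 0, in TECs against malignant cells with anti-PD1 from 5 to 2 and in cluster 12 against 7 from 4 to 2. Among cells with 2000 to 6000 genes they went to 1 with losartan and 0 with anti-PD1, with both agents, with both agents against anti-PD1, and in clusters 7 and 12. They went to 1 for malignant cells of the CD31-positive sort with losartan+anti-PD1, to 2 for both CD45-negative comparisons, to 1 in myeloid cells and to 2 in cluster 7 against 3. With 75th percentile scaling they went to 0 for both agents against anti-PD1 alone and for clusters 7 and 12, and to 1 for CD45-negative losartan+anti-PD1, microglia and cluster 12 against 3 or 7, and 2 for cluster 7 against 3. With 0.1 TP100K added they were 2 in clusters 7 and 12 and 1 in CD31-positive losartan, both CD45-negative comparisons and myeloid cells. Without the highest cell microglia had 1. Without Rn45s clusters 7 and 12 had 2 and CD45-negative losartan+anti-PD1 had 1. Without the filter the share of all genes past 2-fold in losartan T cells was 9.31% in place of 5.87%. These 4 concerned Nrp2 in cluster 12 against 3 (−1.35 with 2000 to 6000 genes), and in cluster 12 against 7 Kdr (−0.44) and Flt4 (−0.30) with 75th percentile scaling and Flt4 (−0.0033) with 2000 to 6000 genes. The share of higher among all genes past 2-fold moved with the 75th percentile from 59.6% to 24.9% (losartan TECs), 58.8% to 18.1% (anti-PD1), 43.2% to 73.03% (losartan+anti-PD1 against anti-PD1), 57.2% to 92.3% (cluster 3), 70.9% to 52.5% (microglia), 52.1% to 71.01% (clusters 7 and 12), 80.95% to 66.7% and 54.7% to 40.7% (CD45-negative losartan and losartan+anti-PD1), 53.2% to 28.6%, 49.8% to 23.9% and 66.7% to 85.9% (T cells with losartan, anti-PD1 and both), 43.8% to 15.7%, 53.6% to 11.9%, 40.4% to 16.03% and 44.3% to 15.7% (TECs against malignant cells), and 29.97% to 13.5%, 33.5% to 4.53% and 43.7% to 91.7% (clusters 12 against 3, 12 against 7 and 7 against 3). Without Rn45s it moved to 62.6% (CD45-negative losartan), 60.4% (microglia) and from 77.5% to 66.3% (myeloid cells). For 38 shares of cells the value moved beyond its interval, and for 100 it did not, when 1 TP100K was required in place of any value above 0.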
